A study of Mus musculus with 42 samples.

Results

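MHC class II genes were followed through RNA sequencing of sorted colonic goblet cells, sorted colonic stromal cells and colonic organoids of mice. The 7 genes were chosen by name (H2-Aa, H2-Ab1, H2-Eb1, H2-DMa, H2-DMb1, Cd74 and Ciita) from 19232 gene names in the 12 deposited tables, of which 12190 are in every table. They were selected on their values in these same tables, in each knockout or cytokine against its control and in goblet against stromal cells, so those values, and the differences between 2 such comparisons, are given below as a description and without a test. All 7 genes had values in each of the 8 tables of sorted cells. The organoid tables held 3 to 5 of them, and H2-Aa and H2-DMb1 were in none.

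Goblet cells were sorted by a Muc2-mCherry reporter from 3 kinds of mice that all carry Gli1-CreERT2 and received tamoxifen. GWTM2 mice are the controls, with no loxP-flanked gene. GS4M2 mice carry Smad4 fl/fl and GA3M2 mice carry Alk3 fl/fl in addition. Alk3 is listed in the files as Bmpr1a. Stromal cells were sorted by tdTomato from GWTT, GS4T and GA3T mice, which have the same Gli1-CreERT2, Smad4 fl/fl and Alk3 fl/fl alleles with Rosa26-Loxp-STOP-Loxp-tdTomato in place of the mCherry reporter. Cre is driven by Gli1, a gene of stromal cells, so the sorted goblet cells are not its target, and the tdTomato mark also stays in all descendants of a cell once labelled. Both kinds of cell were taken at day 30 from proximal and distal colon, with 2 libraries per group, and the mice were adults of both sexes. Wild-type colonic organoids received 10 nM IL-1a and IL-1b, 10 nM IL-17a or neither for 12 h or 72 h in medium with EGF, Noggin, R-spondin1, Wnt3a and CHIR, with 3 libraries per group. Noggin is a BMP antagonist, and all organoid groups received it. Whether 1 mouse or several stand behind a library is not in the labels, so a p-value here measures the spread between these libraries only.

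MHC class II molecules present peptides from the endosome to CD4+ T cells. An alpha and a beta chain pair in the endoplasmic reticulum around the invariant chain (Cd74), which blocks the peptide groove until endosomal proteases cut it down, and the DM heterodimer (H2-DMa with H2-DMb1) then exchanges the remaining fragment for peptide. Ciita is the coactivator that switches the whole set on, through factors bound at the X and Y boxes of their promoters, and it is induced by interferon gamma in cells other than professional antigen-presenting cells, intestinal epithelium among them. BMP ligands signal through type I receptors such as ALK3 to SMAD proteins that act with SMAD4.

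The 42 libraries held 14222902 to 23686940 reads on named genes (median 17158199.5). In stromal cells the deleted genes were low and not absent, in CPM, the reads of a gene per 1000000 reads on the 12190 genes present in every table. Smad4 was 54.7 to 93.8 CPM in GS4T cells against 126 to 145 CPM in GWTT cells, and Bmpr1a was 141 to 169 CPM in GA3T cells against 221 to 250 CPM in GWTT cells. In goblet cells Bmpr1a was 70.9 to 87.3 CPM in GA3M2-Proximal against 110 to 119 CPM in GWTM2-Proximal, and 80.6 to 87.1 against 94.7 to 109 CPM in the distal colon, without overlap in either segment. Of all genes 26.1% and 22.2% were lower without overlap in these comparisons. Smad4 was 109 to 110 CPM in GS4M2-Proximal against 99.3 to 113 CPM in GWTM2-Proximal goblet cells. In the distal colon it was 154 to 155 against 156 to 161 CPM, and 22.6% of all genes were lower without overlap there. Gli1 was at 2.66 CPM in GA3T-Proximal library 2 and 1.88 CPM in GS4T-Proximal library 2, against 50.4 to 133 CPM in all other stromal libraries. The members' medians and correlations that rest on these 2 libraries are also given without them. For the change of the Alk3 knockout effect between segments this is only a range over the library left out. Fold changes of single members are given with these libraries only. By Xist and genes of chromosome Y, all goblet libraries were male except library 1 of GWTM2-Proximal and of GWTM2-Distal, and all stromal libraries were female except library 1 of GWTT-Proximal, of GA3T-Proximal and of GA3T-Distal. The labelled cell types had their own markers. Summed CPM of 9 goblet markers was 10412 to 64363 in goblet libraries and 6.33 to 1321 in stromal libraries, and summed CPM of 11 stromal markers was 58094 to 80527 in stromal and 33.4 to 53.7 in goblet libraries. Leukocyte markers were near 0 in goblet libraries and were not in stromal libraries. Within a segment both knockouts share their control libraries.

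In the mouse genome 5 of the 7 genes sit close together, and Ciita and Cd74 lie on other chromosomes. In GRCm38 (mm10), H2-DMa (ENSMUSG00000037649) spans chr17:34119541-34139101, H2-DMb1 (ENSMUSG00000079547) chr17:34153072-34160230, H2-Ab1 (ENSMUSG00000073421) chr17:34257689-34269419 and H2-Eb1 (ENSMUSG00000060586) chr17:34305867-34316674, all on the plus strand. H2-Aa (ENSMUSG00000036594) spans chr17:34282744-34287823 on the minus strand. Ciita (ENSMUSG00000022504) is on the plus strand at chr16:10480059-10528418. H2-DMb1 has a near-identical neighbour, H2-DMb2, and how reads shared by the pair were counted is not given in the sources used here, so its values are less certain than those of the other members.

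The proximal promoters of H2-Eb1, H2-DMb1 and H2-Aa are shown because the members' levels moved together in the goblet libraries, and promoters of this family are known for a shared X and Y box. Each line gives the 130 bases before the RefSeq transcription start (GRCm38.p6), 5′ to 3′ on the gene's strand. Capitals mark matches to the Y box core TGATTGG and to the X box letters AACNNATGA.
H2-Eb1 (chr17:34305737-34305866, plus strand): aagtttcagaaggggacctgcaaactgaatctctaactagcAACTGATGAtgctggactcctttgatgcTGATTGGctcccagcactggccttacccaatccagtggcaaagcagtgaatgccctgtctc
H2-DMb1 (chr17:34153061-34153190, plus strand): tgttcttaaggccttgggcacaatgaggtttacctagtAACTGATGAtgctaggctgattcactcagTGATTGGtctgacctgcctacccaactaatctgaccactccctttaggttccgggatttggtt
H2-Aa (chr17:34287824-34287953, minus strand): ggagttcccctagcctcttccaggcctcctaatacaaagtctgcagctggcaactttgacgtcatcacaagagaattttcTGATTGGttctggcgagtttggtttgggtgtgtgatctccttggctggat
In H2-Eb1 the X box letters begin at base -89 and the Y box core at base -61, and in H2-DMb1 they begin at -92 and -63. H2-Aa held the Y box core, at base -50, and no match to these X box letters. The 2 windows of H2-DMa held neither. Searched on both strands over windows of 250 bases before to 50 bases after the start, the Y box core was in 7.82% of 32851 promoter windows, the X box letters in 2.85% and both in 0.307%. A match describes the letters in the window and is not a binding site, and promoter windows of H2-Ab1 and Ciita were not used here.

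Class II RNA was present in goblet libraries at levels that ranged widely and in stromal libraries at levels that ranged less widely, and was close to absent from organoids. Summed over the 7 members, it was 14.8 to 1798 CPM in the 12 goblet libraries, 205 to 1800 CPM in the 12 stromal libraries and 1.67 to 4.72 CPM in the organoid libraries. Over goblet libraries the highest level was 292 times the lowest for Cd74 (3.44 to 1003 CPM), 286 times for H2-Aa (0.700 to 200.1 CPM), 167 times for H2-Eb1 (0.955 to 160 CPM) and 17.2 times for H2-DMa (2.22 to 38.3 CPM). Over stromal libraries the same ratio was 6.58 for Cd74 (120 to 786 CPM), 15.0 for H2-Aa (17.7 to 266 CPM), 14.1 for H2-Eb1 (20.5 to 290 CPM) and 3.16 for H2-DMa (9.50 to 30.0 CPM). These are bulk libraries, in which fewer cells of a type and less RNA per cell cannot be told apart.

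Divided by the length of their exons, the members fell in a similar order in both cell types. In stromal libraries the median CPM per kilobase was 354 for Cd74, 88.2 for H2-Eb1, 77.1 for H2-Ab1, 42.6 for H2-Aa, 12.0 for H2-DMb1, 5.24 for H2-DMa and 1.04 for Ciita. In goblet libraries it was 121 for Cd74, 22.6 for H2-Ab1, 15.4 for H2-Eb1, 13.3 for H2-DMb1, 6.34 for H2-Aa, 2.99 for H2-DMa and 0.939 for Ciita. Cd74 was the most abundant member per length and Ciita the least in both. Neighbours in this order overlapped in range over the libraries, except H2-DMa and Ciita in stromal cells.

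**Figure D1:**
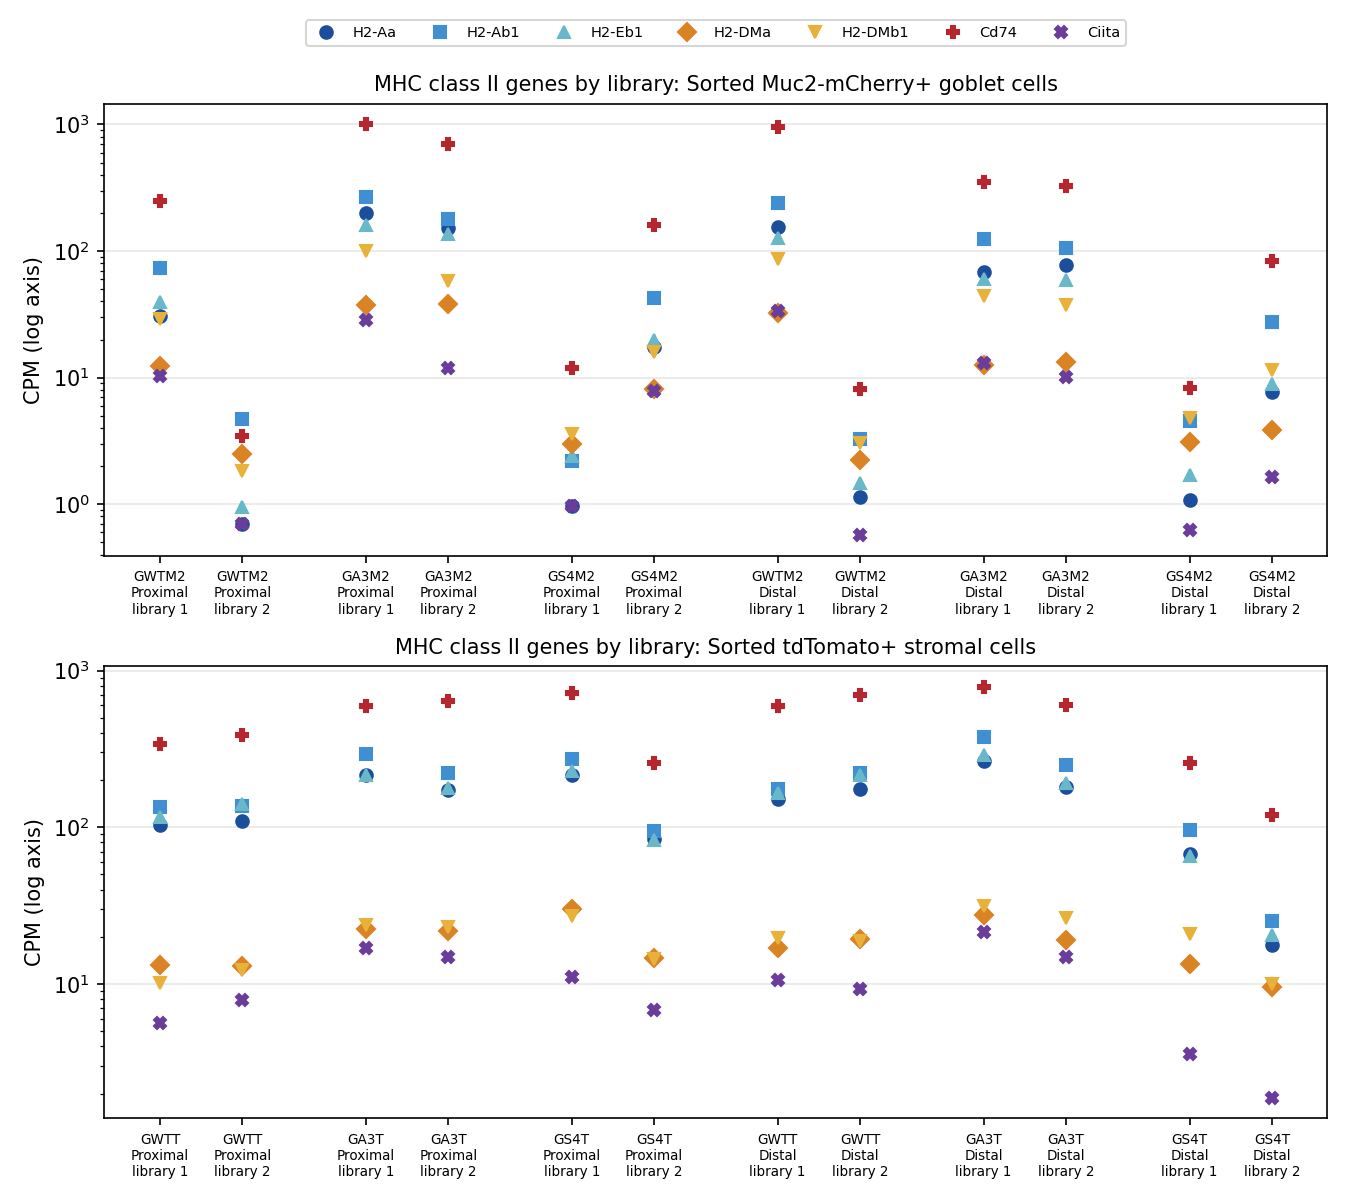
Level of each MHC class II gene in each library, in CPM on a log axis, for the goblet libraries (top) and the stromal libraries (bottom) by group; each point is 1 library. In GWTM2 goblet cells the 2 libraries of a segment lie far apart for every member (for Cd74 948 and 8.19 CPM in the distal colon), while the stromal control libraries of a segment lie close together.

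In control goblet cells the 2 libraries of a segment differed more than any pair of stromal controls. GWTM2-Proximal held 4421 and 61.6 normalized counts of Cd74 in libraries 1 and 2, and GWTM2-Distal held 15900 and 141 (values of the tables with GA3M2). The beta chain H2-Ab1 was 1321 and 84.4 in GWTM2-Proximal and 4023 and 56.8 in GWTM2-Distal. Ciita was 185 and 12.6 in GWTM2-Proximal and 562 and 9.83 in GWTM2-Distal. Library 1 was the high control in both segments for all 7 members, and it was also the female library. The part of sex was not tested. Between the proximal and the distal controls the median log2 difference of the members was -1.15, with adjusted p between 0.857 and 0.954 (limma on log2(CPM + 0.1) over the 12 goblet libraries, 1.68% of 13063 genes called). The median was -3.69 without GWTM2-Proximal library 1 and 1.94 without GWTM2-Distal library 1, so neither direction held.

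In GA3M2-Proximal goblet cells every MHC class II gene was above both of its controls. The question is whether loss of a BMP receptor in the stroma alters the goblet cells next to it. Cd74, the invariant chain, was at 18064 and 13172 normalized counts in GA3M2-Proximal cells against 4421 and 61.6 in GWTM2-Proximal cells. The alpha chain H2-Aa was 3602 and 2885 against 547 and 12.6, and the beta chain H2-Eb1 was 2875 and 2579 against 714 and 17.1. In all of them the lower knockout library lay above the higher control, and the control libraries lay far from each other. H2-Ab1, the other beta chain, was 4836 and 3367 against 1321 and 84.4. The peptide exchange factor genes were 670 and 721 against 223 and 44.5 for H2-DMa, and 1812 and 1087 against 516 and 33.1 for H2-DMb1. Ciita, the coactivator, was 516 and 226 against 185 and 12.6, which was the narrowest gap of the 7.

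The log2 fold changes in GA3M2-Proximal cells were 5.23 ± 1.54 (SE) for H2-Aa, 4.87 ± 1.77 for Cd74, 4.58 ± 1.53 for H2-Eb1, 3.59 ± 1.15 for H2-Ab1, 3.40 ± 1.16 for H2-DMb1, 2.79 ± 0.69 for H2-DMa and 2.77 ± 1.16 for Ciita, on the log2(normalized count + 1) scale with limma. Their median was 3.59, against -0.003 over all 13346 genes tested. Without GWTM2-Proximal library 1 the median was 5.56 and without GWTM2-Proximal library 2 it was 1.64, so the low control library sets much of its size and not its sign. Groups did not overlap, with the knockout higher, for 7 of 7 members and for 26.0% of all genes. With an adjusted p under 0.05 and a log2 fold change of 1 or more in either direction as the threshold, 0 of 7 members and 0.0899% of all genes were called with limma, edgeR called 0 members and DESeq2 1. Nothing is read from these counts, since the rule used this contrast.

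In GA3M2-Distal goblet cells all 7 members lay between the 2 controls. Cd74 was 5983 and 5244 normalized counts against 15900 and 141 in GWTM2-Distal cells. H2-Aa was 1170 and 1260 against 2605 and 19.7, and Ciita was 221 and 164 against 562 and 9.83. The groups overlapped for every member, and the knockout libraries were close to each other. The median log2 fold change was 1.90, with single values from 0.56 ± 1.17 (H2-DMa) to 2.39 ± 2.11 (H2-Aa). It was 5.04 without GWTM2-Distal library 1 and -1.10 without GWTM2-Distal library 2, so the direction depends on which control is kept. It also depends on the tool, with a median of -0.14 by edgeR and by DESeq2. No gene was called (0% of 13082 genes with limma, with 1537 genes at an unadjusted p under 0.05, 0 called by edgeR and 240 by DESeq2).

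GS4M2 goblet cells had class II levels that overlapped with those of their controls. In GS4M2-Distal cells Cd74 was 138 and 1434 normalized counts against 16621 and 146 in GWTM2-Distal cells. H2-Aa was 18.02 and 133 against 2723 and 20.4, and Ciita was 10.4 and 28.5 against 587 and 10.2. For all 7 members knockout library 1 lay near control library 2, and knockout library 2 lay between the controls. The median log2 fold change was -1.80, from -2.26 ± 2.37 (H2-Aa) to -1.18 ± 1.56 (H2-DMb1), and it was 1.24 without GWTM2-Distal library 1 and -5.00 without GWTM2-Distal library 2. By edgeR it was -3.41. No gene was called there either (0% of 13078 genes with limma, with 1389 genes at an unadjusted p under 0.05, 0 called by edgeR and 150 by DESeq2). In GS4M2-Proximal cells Cd74 was 193 and 2672 against 4152 and 58.3, and H2-Aa was 15.8 and 294 against 514 and 11.9. Both knockout libraries lay between the controls for these and for Ciita (15.8 and 130 against 173 and 11.9), and the groups overlapped for 7 of 7 members. The median log2 fold change was -0.01, from -0.97 ± 1.66 (H2-Ab1) to 0.54 ± 2.06 (Cd74), and 0.325% of genes were called. By edgeR the median was -0.68. It ran from -2.53 without GWTM2-Proximal library 2 to 1.97 without GWTM2-Proximal library 1, and leaving out either GS4M2-Proximal library also moved it, to 1.47 without library 1 and -1.43 without library 2. For this table alone the study's own supplementary copy has the 2 group headings swapped against the deposited columns, which would turn the sign of each of its fold changes. The deposited headings were used, since their GWTM2 columns are the same reads as the GWTM2 columns of the GA3M2-Proximal table.

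The 2 knockouts were also set against each other, which leaves out the divergent controls. The members were chosen on the effect of each knockout, so these differences are a description and carry no test. In the proximal colon Cd74 was 11.9 and 159.7 CPM in GS4M2 cells and 1003 and 699 CPM in GA3M2 cells. In the distal colon it was 8.28 and 82.9 CPM in GS4M2 cells and 352 and 324 CPM in GA3M2 cells. Every member was lower in both GS4M2 libraries than in either GA3M2 library in both segments. The share of all genes lower in this way was not counted for these contrasts. In the goblet knockouts against their controls it was 22.2% to 26.1%. The median log2 difference was -4.35 in the proximal colon (-6.00 without GS4M2-Proximal library 2 and -2.44 without GS4M2-Proximal library 1) and -3.39 in the distal colon (-4.68 without GS4M2-Distal library 2 and -2.07 without GS4M2-Distal library 1). The SE of single members was 1.05 to 2.33 in both segments. Of all genes 0.521% were called in the proximal colon and 0.796% in the distal. The change of the knockout effect from distal to proximal colon had a median of 1.95 for GS4M2 (0.0153% of all genes called) and 2.23 for GA3M2 (0.00766% called). These medians became -1.18 and -0.63 without GWTM2-Distal library 1, so neither sign held.

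**Figure D2:**
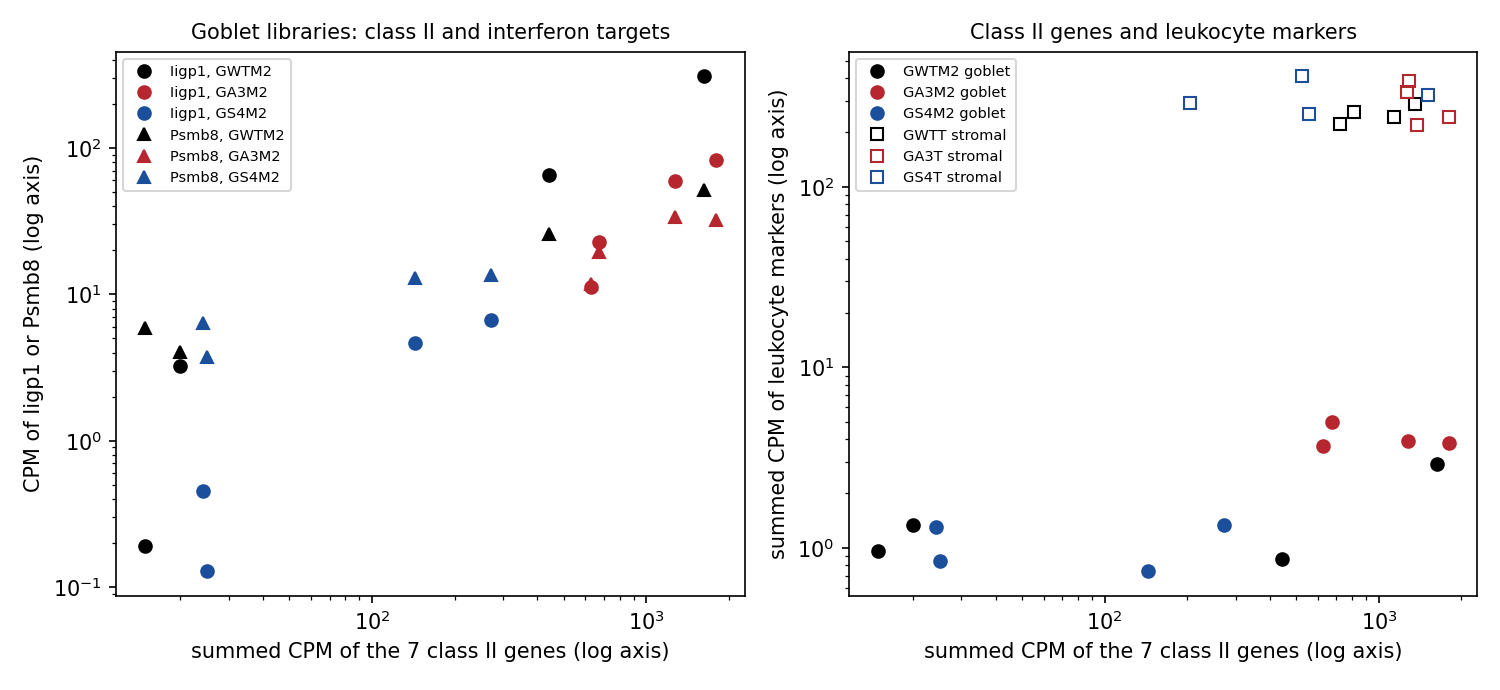
Left, Iigp1 and Psmb8 (CPM, log axis) against summed class II CPM (log axis) in the 12 goblet libraries; right, summed CPM of leukocyte markers against summed class II CPM in goblet and stromal libraries; each point is 1 library. In goblet libraries summed class II RNA runs from 14.8 to 1798 CPM while summed leukocyte markers stay between 0.744 and 5.003 CPM. These leukocyte sums rest on 1 to 6 of the 6 markers, since not every marker is listed for every goblet library.

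The members rose and fell together from goblet library to goblet library. Over the 12 goblet libraries, which share controls and cell type, Pearson's r of log2(CPM + 0.1) was 0.944 to 0.996 for the 21 pairs of members, with a median of 0.974, and 0.919 to 0.996 without the 2 libraries farthest from the median. Over the 12 stromal libraries it was 0.706 to 0.995, with a median of 0.892, and 0.778 to 0.992 without the 2 farthest and 0.689 to 0.996 without the 2 that are low in Gli1. The 3 genes most like the mean of the members over goblet libraries, of 12368 genes, were Dnajb1 (a co-chaperone of the heat shock response, r = 0.938, 62.9 to 185 CPM), Psmb8 (a subunit of the immunoproteasome, r = 0.934, 3.74 to 51.9 CPM) and Iigp1 (an interferon-inducible GTPase, r = 0.924, 0.129 to 309 CPM). Without the 2 farthest libraries their r was 0.900, 0.916 and 0.948. These correlations describe 12 libraries and were not tested.

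Iigp1 was 309 and 3.24 CPM in GWTM2-Distal libraries 1 and 2, and 65.5 and 0.191 CPM in GWTM2-Proximal libraries 1 and 2. It was 82.7 and 59.2 CPM in GA3M2-Proximal, 22.9 and 11.2 CPM in GA3M2-Distal, 0.129 and 6.69 CPM in GS4M2-Proximal and 0.454 and 4.62 CPM in GS4M2-Distal cells. The same control libraries were high for Iigp1 as for the class II genes. Nlrc5, the relative of Ciita that acts on class I genes, was 61.3 and 5.14 CPM in GWTM2-Distal and 16.2 and 2.42 CPM in GWTM2-Proximal cells, and its r with the members was 0.830. Irf1, a factor induced by interferon that acts on Ciita, had r = 0.804, and Rfx5, a subunit of the factor at the X box, r = -0.507. Rfx5 in goblet cells had log2 fold changes of -1.23 ± 0.25 in GA3M2-Proximal (adjusted p = 0.161) and -0.96 ± 0.21 in GA3M2-Distal (adjusted p = 0.306), neither past the threshold by limma.

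Markers of other cells were low in goblet libraries, and some were higher in GA3M2 than in GWTM2 libraries. The 6 leukocyte markers summed to 3.67 to 5.003 CPM in the 4 GA3M2, 0.867 to 2.92 CPM in the 4 GWTM2 and 0.744 to 1.34 CPM in the 4 GS4M2 libraries. Between 1 and 6 of the markers were listed in a library's tables. Cd52 had values in all 12 goblet libraries, and Ptprc, Cd53, Coro1a, Laptm5 and Rac2 in 8 each. The sums are therefore not over the same genes, and the GS4M2 sum cannot be ranked against the others. Ptprc (CD45) was between 0 and 0.888 CPM in GA3M2 and GWTM2 libraries and was not listed for GS4M2. The 11 B cell markers summed to 0 to 1.76 CPM and the 10 dendritic cell markers to 0 to 1.08 CPM, with at most 1 of each list present. The macrophage list summed to 124 to 141 CPM in GA3M2, 52.2 to 163 CPM in GWTM2 and 65.8 to 91.0 CPM in GS4M2 libraries. It was mostly Cd14 (36.0 to 144 CPM), with 6 to 13 of 18 markers listed and Adgre1 in no goblet table. Lyz2 was 16.9 to 26.3 CPM in GA3M2 and 0 to 0.344 CPM in GWTM2 libraries, and was not listed for GS4M2. The other markers of this list are not given singly by group. Neutrophil markers summed to 20.1 to 127 CPM in GA3M2, 0.382 to 9.10 CPM in GWTM2 and 6.003 to 33.8 CPM in GS4M2 libraries. This sum was mostly Ly6g (0.382 to 121 CPM), while S100a8 and S100a9 reached at most 2.72 and 2.43 CPM. Ly6g was also 134 to 783 CPM in the organoid libraries, so this sum does not mark neutrophils alone. In GWTM2-Distal library 1, with summed class II RNA of 1623 CPM, leukocyte markers summed to 2.92 CPM, and in GWTM2-Proximal library 1, with 442 CPM of class II RNA, they summed to 0.867 CPM. The part of these cells in the class II levels was not tested. Goblet markers summed to 10412 to 24919 CPM in GA3M2, against 31517 to 64363 CPM in GWTM2 and 37275 to 50065 CPM in GS4M2 libraries.

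In control stromal cells the class II genes were close between libraries. Cd74 was 340 and 389 CPM in GWTT-Proximal and 597 and 696 CPM in GWTT-Distal. All 7 members were lower in the proximal than in the distal controls, with a median log2 difference of -0.54 (-0.80 to -0.44). The difference did not pass the test for any member (adjusted p 0.363 to 0.763, limma over the 12 stromal libraries, 1.90% of 15352 genes called). The median was -0.69 without GWTT-Distal library 1 and -0.67 without GWTT-Proximal library 2.

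In GA3T-Proximal stromal cells, in which the receptor gene itself is deleted, all 7 members were above both controls, by less than in goblet cells. Ciita was 223 and 193 normalized counts against 75.1 and 104 in GWTT-Proximal cells. H2-Ab1 was 3840 and 2901 against 1818 and 1800, and Cd74 was 7795 and 8303 against 4558 and 5139. The knockout libraries were high for each, and no group overlapped. The log2 fold changes were 1.22 ± 0.28 for Ciita, 1.04 ± 0.20 for H2-DMb1, 0.88 ± 0.16 for H2-Ab1, 0.84 ± 0.14 for H2-Aa, 0.73 ± 0.18 for H2-DMa, 0.73 ± 0.13 for Cd74 and 0.60 ± 0.16 for H2-Eb1. Their median was 0.84, against 0.01 over all 15346 genes, and 1.00 without the library that is low in Gli1. Groups did not overlap, with the knockout higher, for 28.8% of all genes, and 0.358% of genes and 0 of 7 members were called by limma, 0 members by edgeR and 2 by DESeq2.

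In GA3T-Distal cells the difference was smaller. Ciita was 291 and 213 normalized counts against 147 and 129 in GWTT-Distal cells, and H2-Ab1 was 5155 and 3567 against 2448 and 3077. Both were above their controls in both libraries. Cd74 was 10710 and 8522 against 8331 and 9711, and H2-Eb1 was 3945 and 2739 against 2311 and 2985. These 2 genes overlapped with their controls, and the other 5 did not, while 27.5% of all genes were higher without overlap. The median log2 fold change was 0.43, from 0.09 ± 0.18 (Cd74) to 0.85 ± 0.25 (Ciita), and it was 0.67 without GA3T-Distal library 2 and 0.19 without GA3T-Distal library 1. No gene was called (0% of 15414 genes with limma, with 2885 genes at an unadjusted p under 0.05, 0 called by edgeR and 778 by DESeq2).

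In GS4T-Distal stromal cells the class II genes lay below their controls. Cd74 was 3198 and 1492 normalized counts against 7303 and 8533 in GWTT-Distal cells. H2-Eb1 was 815 and 256 against 2026 and 2623, H2-Aa was 839 and 221 against 1854 and 2143, and Ciita was 44.3 and 23.5 against 129 and 113. Both knockout libraries were low, and library 2 was the lower for each of them. H2-Ab1 (1190 and 316 against 2145 and 2704) and H2-DMa (167 and 119 against 207 and 236) were also below both controls, while H2-DMb1 (259 and 126 against 240 and 230) overlapped. The log2 fold changes were -2.33 ± 0.51 for H2-Eb1, -2.21 ± 0.57 for H2-Aa, -1.97 ± 0.58 for H2-Ab1, -1.87 ± 0.42 for Ciita, -1.85 ± 0.34 for Cd74, -0.65 ± 0.25 for H2-DMa and -0.38 ± 0.36 for H2-DMb1. Their median was -1.87, and it was -2.40 without GS4T-Distal library 1 and -1.25 without GS4T-Distal library 2. Of the members 6 of 7 were lower without overlap, as were 33.1% of all genes, and limma called 4 of 7 members, against 14.0% of all 15262 genes. It called 0 members when GWTT-Distal library 1 was left out, and 0 when GWTT-Distal library 2 was. Nothing is read from these counts, since the rule used this contrast.

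In GS4T-Proximal cells the knockout libraries fell on either side of their controls. Cd74 was 8933 and 3259 normalized counts against 4332 and 4888 in GWTT-Proximal cells, H2-Aa was 2674 and 1063 against 1317 and 1370, and Ciita was 137 and 86.7 against 71.3 and 99.4. Library 1 was above both controls for all 7 members. Library 2, the one that is low in Gli1, was below both controls for Cd74, H2-Aa, H2-Ab1 and H2-Eb1. H2-DMa (372 and 187 against 168 and 164) and H2-DMb1 (337 and 182 against 130 and 154) were above both controls in both libraries, and 34.0% of all genes were higher without overlap. The median log2 fold change was 0.33, from 0.10 ± 0.46 (H2-Eb1) to 0.80 ± 0.34 (H2-DMb1), and it was 0.98 without GS4T-Proximal library 2 and -0.34 without GS4T-Proximal library 1. Limma called 9.61% of all 15319 genes and 0 of 7 members, as did edgeR and DESeq2 for the members.

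**Figure D3:**
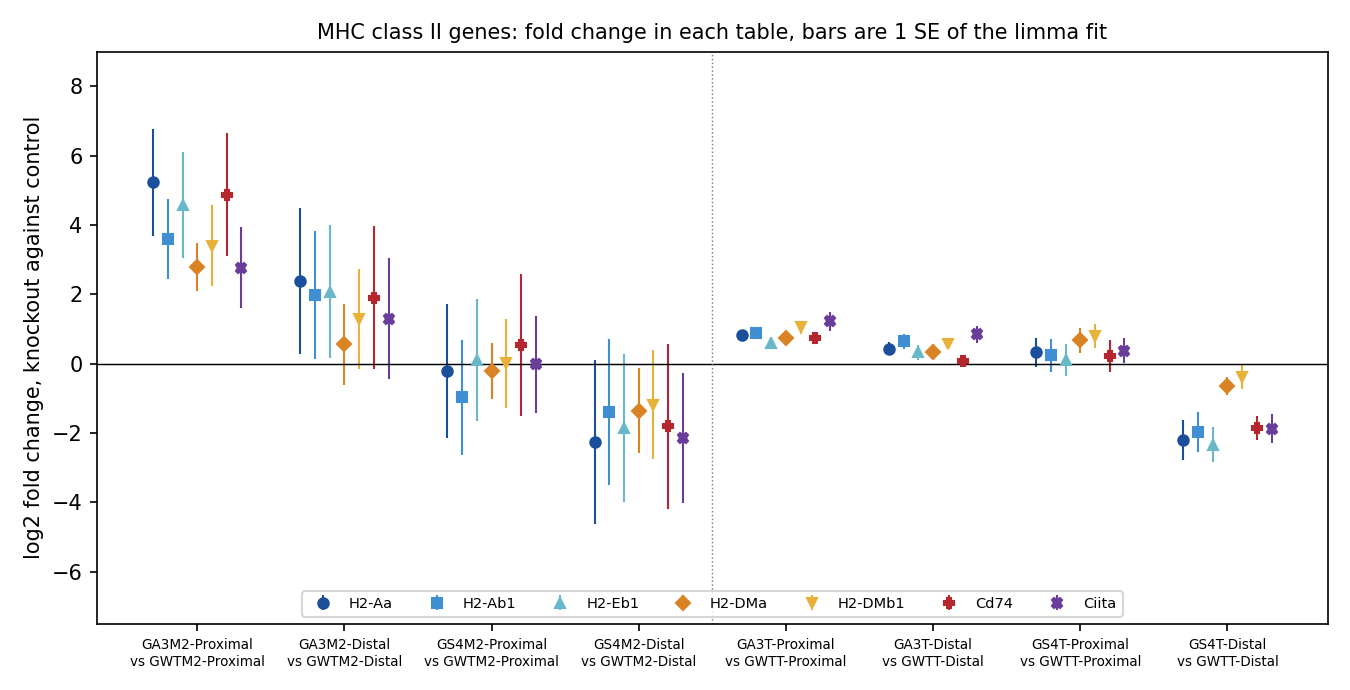
Log2 fold change of each MHC class II gene with its SE (limma, log2(normalized count + 1)) in the 8 comparisons of sorted cells, knockout against control. Members lie above 0 in both GA3T and both GA3M2 comparisons, with SE of up to 2.11 in GA3M2 cells, and lie below 0 in GS4T-Distal and GS4M2-Distal; in GA3M2-Distal the median by edgeR was -0.14.

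Smad4 and Alk3 knockout stroma were set against each other in one fit over the 12 stromal libraries. The members were chosen on the effect of each knockout, so these differences carry no test either. In the distal colon Ciita was 3.56 and 1.88 CPM in GS4T-Distal cells and 21.4 and 14.9 CPM in GA3T-Distal cells, with a log2 difference of -2.69 ± 0.36 (SE). H2-Eb1 was 65.6 and 20.5 CPM against 290 and 192 CPM, with a log2 difference of -2.65 ± 0.55. H2-Aa was 67.5 and 17.7 CPM against 266 and 182 CPM, with a log2 difference of -2.63 ± 0.57. For these 3 genes both GS4T libraries were below both GA3T libraries.

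The other 4 members were also lower in both GS4T-Distal libraries than in both GA3T-Distal libraries. How many of all genes were lower in this way was not counted for this contrast, and 2.98% were called in either direction. In the stromal knockouts against their controls 26.8% to 33.1% of all genes were lower without overlap. H2-Ab1 had a log2 difference of -2.61 ± 0.60, Cd74 of -1.93 ± 0.45, H2-DMa of -0.99 ± 0.32 and H2-DMb1 of -0.94 ± 0.35. The median over the 7 members was -2.61, and -1.66 without GS4T-Distal library 2. GA3T-Distal library 1 was the only male library of the 4. The part of sex was not tested.

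In the proximal colon the median difference between GS4T and GA3T was -0.51 (0.0977% of all genes called). It was 0.21 without GS4T-Proximal library 2, -1.18 without GS4T-Proximal library 1 and -0.65 without GA3T-Proximal library 2. The change of the Smad4 knockout effect from distal to proximal stroma had a median of 2.19 (0.0521% of all genes called), with 2.81 without GS4T-Proximal library 2 and 1.44 without GS4T-Proximal library 1. That of the Alk3 knockout had a median of 0.38 (0% of all genes called by limma, with 1122 genes at an unadjusted p under 0.05, 0 by edgeR and 145 by DESeq2). The members' values here are differences of values by which they were chosen and were not tested.

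**Figure D4:**
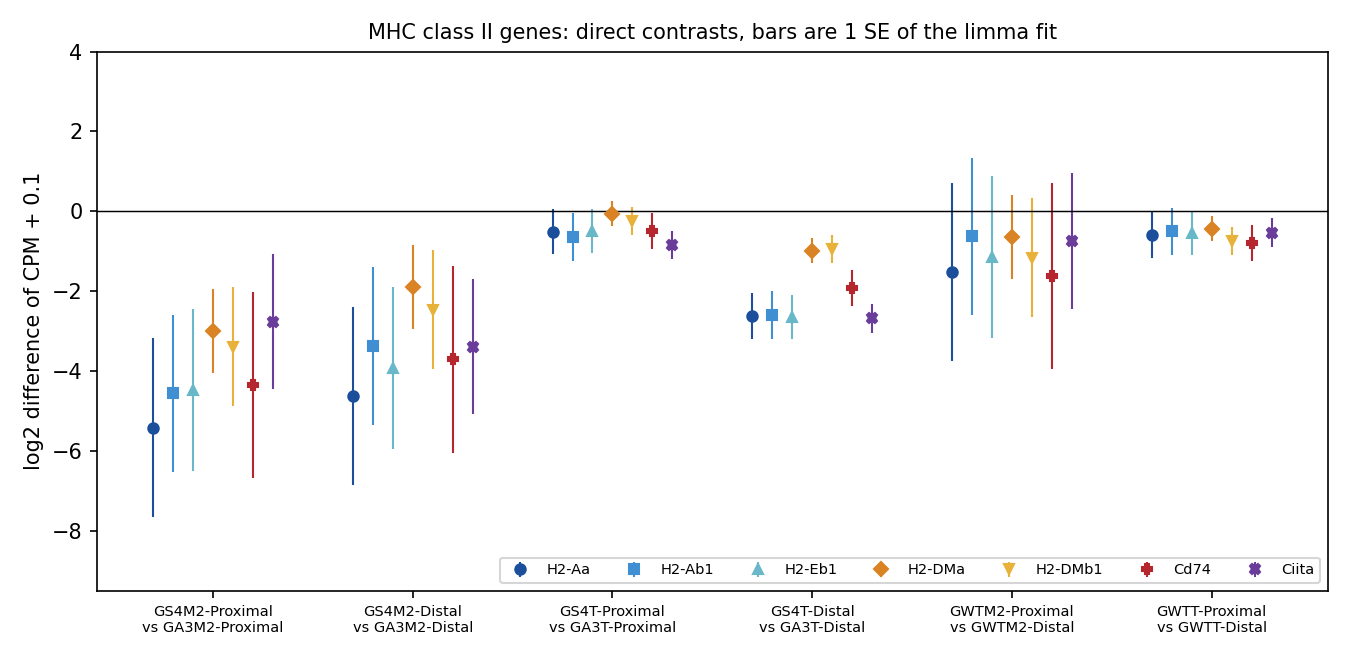
Log2 difference of each MHC class II gene with its SE (limma, log2(CPM + 0.1)) between GS4 and GA3 cells and between proximal and distal controls. The members lie below 0 in all 6 comparisons, with the shortest bars in stromal cells (Ciita -2.69 ± 0.36 in GS4T-Distal against GA3T-Distal).

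Stromal libraries held RNA of several immune cell types, and macrophages, dendritic cells and B cells carry class II. All 6 leukocyte markers had values in every stromal library and summed to 220 to 410 CPM. B cell markers summed to 13.7 to 20.7 CPM in GS4T-Distal, 60.4 to 77.3 CPM in GWTT-Distal and 35.5 to 91.1 CPM in GA3T-Distal libraries, and plasma cell markers to 2190 to 8769, 29125 to 37797 and 15711 to 21870 CPM in the same order. Cd79a, part of the B cell receptor, was 2.21 to 4.61 CPM in GS4T-Distal and 27.1 to 35.0 CPM in GWTT-Distal cells. These lists moved in the direction of the class II genes in GS4T-Distal cells. The sum of the 18 macrophage markers was higher there, at 2039 to 3596 CPM in GS4T-Distal against 1040 to 1178 CPM in GWTT-Distal libraries. Of its genes Lyz2 was 1239 and 691 against 415 and 226 CPM. Csf1r overlapped, at 258 and 138 against 151 and 149 CPM. The dendritic cell sum was 57.7 to 62.6 against 47.5 to 49.9 CPM. Itgax was 33.9 and 25.4 against 19.3 and 10.1 CPM. Mgl2, which is on none of these lists, was lower like the class II genes, at 0.713 and 0.188 against 11.9 and 12.4 CPM. The other macrophage and dendritic cell markers are not given singly by group. In GA3T-Proximal cells macrophage markers summed to 1322 to 2346 CPM and dendritic cell markers to 63.8 to 67.0 CPM, against 320 to 502 and 35.6 to 45.1 CPM in GWTT-Proximal cells, while plasma cell markers summed to 7807 to 10000 against 13484 to 22192 CPM and B cell markers to 23.3 to 25.6 against 25.2 to 46.4 CPM. Neutrophil markers were 213 to 302 CPM in GS4T-Distal and 88.0 to 112 CPM in GS4T-Proximal, against 2.76 to 8.57 CPM in GWTT libraries. Epithelial markers summed to 642 to 1481 CPM in GA3T and 1005 to 2364 CPM in GS4T, against 21.2 to 751 CPM in GWTT libraries. The part of these cells in the class II levels was not tested.

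The genes most like the members over the 12 stromal libraries, of 14816 genes, were Gbp4 (r = 0.950, 7.34 to 40.9 CPM) and Gbp8 (r = 0.947, 8.84 to 24.5 CPM), both guanylate-binding proteins induced by interferon, and Snrnp70 (a splicing factor, r = 0.944, 334 to 517 CPM). Without the 2 farthest libraries r was 0.858, 0.903 and 0.914, and without the 2 that are low in Gli1 it was 0.948, 0.965 and 0.960. Gbp4 was 12.7 and 7.34 CPM in GS4T-Distal, 24.5 and 25.1 CPM in GWTT-Distal and 29.6 and 40.9 CPM in GA3T-Distal cells, in the same order of groups as Ciita. Rfx5 had r = 0.752, Nlrc5 0.621 and Irf1 0.485, and that of Irf1 became -0.146 without the 2 farthest libraries. Without the 2 that are low in Gli1 these were 0.739, 0.597 and 0.462.

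Goblet and stromal controls were compared by CPM. In the proximal colon H2-Aa was 30.5 and 0.700 CPM in GWTM2 and 103 to 109 CPM in GWTT cells, and Cd74 was 247 and 3.44 CPM against 340 to 389 CPM. Both goblet libraries were below both stromal libraries for these and for H2-Ab1, H2-Eb1 and H2-DMa, while H2-DMb1 (28.8 and 1.85 against 10.2 to 12.2 CPM) and Ciita (10.3 and 0.700 against 5.60 to 7.92 CPM) overlapped. In the distal colon H2-Eb1 alone did not overlap (127 and 1.46 against 166 to 214 CPM). Ciita was 33.5 and 0.571 CPM in GWTM2-Distal against 9.24 to 10.5 CPM in GWTT-Distal cells, and H2-DMb1 was 86.3 and 3.05 against 18.8 to 19.6 CPM. In the distal colon goblet library 1 lay above the stromal controls for 5 of these genes (Cd74, H2-Ab1, H2-DMa, H2-DMb1 and Ciita), and goblet library 2 lay below them for all 7. With CPM taken over all named genes the proximal values of H2-DMa and the distal values of H2-Eb1 also overlapped. The share of all genes without overlap between the cell types was not counted. Nothing is read from the members' overlaps, since the rule used this contrast. The reporters, and so the mice, differ between the cell types.

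The wider pathway was read from 6 lists: class II relatives (6 genes), endosomal proteases and peptide loading (14 names), class II transcription (16), interferon gamma and its targets (23), class I presentation (25) and costimulation (11). In the goblet knockouts, in both GA3T comparisons, in both 12 h organoid comparisons and in the 4 segment interactions limma called 0 genes of all 6 lists. In these comparisons only 0% to 0.358% of all genes were called, so nothing is read from this count.

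In GS4T-Distal stroma 3 of 3 tested class II relatives fell, and none rose, where 14.0% of all genes were called in either direction. H2-Ob, a chain of the DO heterodimer that restrains DM, was 9.55 ± 9.75 normalized counts against 81.1 ± 42.8 (SD, n = 2 each) and differed by -3.26 ± 0.87 on the log2 scale (adjusted p = 0.0460 by limma). H2-Eb2 differed by -2.48 ± 0.66 (adjusted p = 0.0457 by limma) and H2-DMb2 by -1.53 ± 0.42 (adjusted p = 0.0490). Their calls were lost when a library was left out and in other settings. Of 10 tested endosomal proteases 4 rose and none fell, among them Ctss, which cuts the invariant chain (3916 ± 1447 against 1037 ± 231 normalized counts, log2 fold change 1.88, adjusted p = 0.00863 by limma), and Ctsc (1.52, adjusted p = 0.00411). Of the class II transcription genes Irf4, a factor of B cells, plasma cells and dendritic cells, fell from 753 ± 18.7 to 83.6 ± 59.4 normalized counts (log2 fold change -3.36, adjusted p = 0.00834 by limma), and Spi1, a factor of myeloid cells, rose (1.05, adjusted p = 0.0385).

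In the same stroma Gbp2 and Gbp3 of the interferon gamma list fell (log2 fold changes -1.31 and -1.50, adjusted p = 0.00602 and 0.0235 by limma), as did Socs1, named after its values were seen (-1.30, adjusted p = 0.0105), and the receptor subunit gene Ifngr2 rose (1.35, adjusted p = 0.00403). Of the class I genes 3 fell, among them H2-T23 (-1.21, adjusted p = 0.00170) and the immunoproteasome subunit gene Psmb9 (-1.11, adjusted p = 0.0212), and H2-Q10 rose (1.63, adjusted p = 0.0199). Of the costimulation list Icosl, the ligand of ICOS, fell (-1.31, adjusted p = 0.00428), and Cxcr2, a neutrophil receptor listed at 0 in both controls, rose. Irf1 (-0.91 ± 0.15, adjusted p = 0.0111) and Rfx5 (-0.67 ± 0.17, adjusted p = 0.0412) had adjusted p under 0.05 and a log2 change under the size of 1. Of the 16 calls named by the rule, 8 were kept whichever library was left out (Ctsc, Ctss, Cxcr2, Gbp2, H2-T23, Icosl, Ifngr2 and Irf4).

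In GS4T-Proximal stroma 3 of 10 tested proteases rose and none fell, where 9.61% of all genes were called in either direction, on the log2 scale Ctss by 2.61 (adjusted p = 0.0132 by limma), Lgmn by 1.67 (0.0108) and Ctsc by 1.66 (0.00849). Irf4 (-1.88, adjusted p = 0.0439), Irf1 (-1.01, adjusted p = 0.0142) and Socs1 (-1.94, adjusted p = 0.00715) fell, and Spi1 (1.54, adjusted p = 0.0226) and Cd86, a costimulatory ligand of myeloid and B cells (1.82, adjusted p = 0.0379), rose. No class II relative was called. All 11 calls named by the rule were lost when one of the libraries was left out. Without library 2, the one low in Gli1, Lgmn, Ctsc and Socs1 passed (adjusted p = 0.0268, 0.0275 and 0.0446 by limma), and Ctss (0.0542), Irf4 (0.114), Spi1 (0.0848) and Cd86 (0.108) did not.

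Between GS4T-Distal and GA3T-Distal stroma Irf4 (log2 difference -2.75, adjusted p = 0.0320 by limma), Gbp2 (-1.13, adjusted p = 0.0177) and H2-T23 (-0.75, adjusted p = 0.0266) were lower in GS4T, where 2.98% of all genes were called in either direction. Ctsc (1.06, adjusted p = 0.0398), Ctsd (0.86, adjusted p = 0.0309) and Ifngr2 (0.87, adjusted p = 0.0284) were higher. None of these calls was kept with every single library left out. In GS4M2-Proximal against GA3M2-Proximal goblet cells only Ifi30, a thiol reductase that prepares antigen for class II loading, was called in the 6 lists (log2 difference -0.85). Ifng and Lag3 were higher in proximal than in distal stromal controls (2.75 and 1.10), and Cd44 was higher in proximal than in distal goblet controls (1.53). The calls of Ifi30, Ifng and Lag3 were lost when one of the libraries was left out, and that of Cd44 was kept.

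Colonic organoids, which lack stroma and immune cells, tested whether the interleukins act on epithelium alone. Before their values it must be said that 2 of the 3 control libraries are the same reads at both times. Control-12h library 2 equals Control-72h library 1, and Control-12h library 4 equals Control-72h library 4, with 0 of 14735 genes differing, so the 42 libraries hold 40 distinct ones and the 2 control groups are not independent. Each member had 0 to 55 reads in an organoid library, where a count of 0 allows up to 3 reads by counting error alone.

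With IL-1a and IL-1b for 12 h, Cd74 was 1.87, 1.87 and 4.42 normalized counts in controls and 8.90, 12.3 and 11.2 in treated organoids. The treated libraries were all higher, at levels near the limit of detection, and 5.3% of all genes tested were higher without overlap. H2-Ab1 was 21.5, 5.61 and 7.96 in controls against 27.8, 12.3 and 6.52, and H2-DMa was 36.5, 29.9 and 17.7 against 26.7, 27.4 and 23.3. Both overlapped. With IL-1a and IL-1b for 72 h, H2-Ab1 was 5.32, 10.5 and 7.63 in controls and 33.7, 20.9 and 14.3 in treated organoids, without overlap (log2 fold change 1.40 ± 0.52). With this treatment 27.0% of all genes tested were higher without overlap. Cd74 overlapped there, at 1.77, 6.67 and 4.24 against 10.8, 12.9 and 1.10, and H2-Eb1 was 9.76, 9.53 and 3.39 against 2.41, 3.99 and 0. Ciita, with values in this organoid table only, was 3.55, 0.953 and 4.24 against 3.61, 0.996 and 5.48.

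With IL-17a for 12 h the 3 listed members, H2-Ab1, H2-DMa and H2-Eb1, overlapped with their controls, and H2-Ab1 was 22.6, 5.88 and 8.33 normalized counts in controls against 34.3, 2.97 and 8.72. With IL-17a for 72 h H2-Eb1 was 9.74, 9.47 and 3.39 in controls and 1.12, 2.82 and 0 in treated organoids, all lower. In the same comparison 23.6% of all genes tested were lower without overlap. H2-Ab1 was 5.31, 10.4 and 7.62 against 25.8, 11.3 and 0, and H2-DMa was 28.3, 29.4 and 16.9 against 29.1, 51.7 and 32.8. The median log2 fold change of the listed members was 0.64 with IL-1 at 12 h, 0.32 with IL-1 at 72 h, -0.05 with IL-17a at 12 h and -0.57 with IL-17a at 72 h, where edgeR gave 0.09. Limma called 0 of the 2 members that passed the filter (H2-Ab1 and H2-DMa) in all 4 comparisons, beside 0.0542%, 23%, 0.0385% and 7.94% of all genes in the same order.

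**Figure D5:**
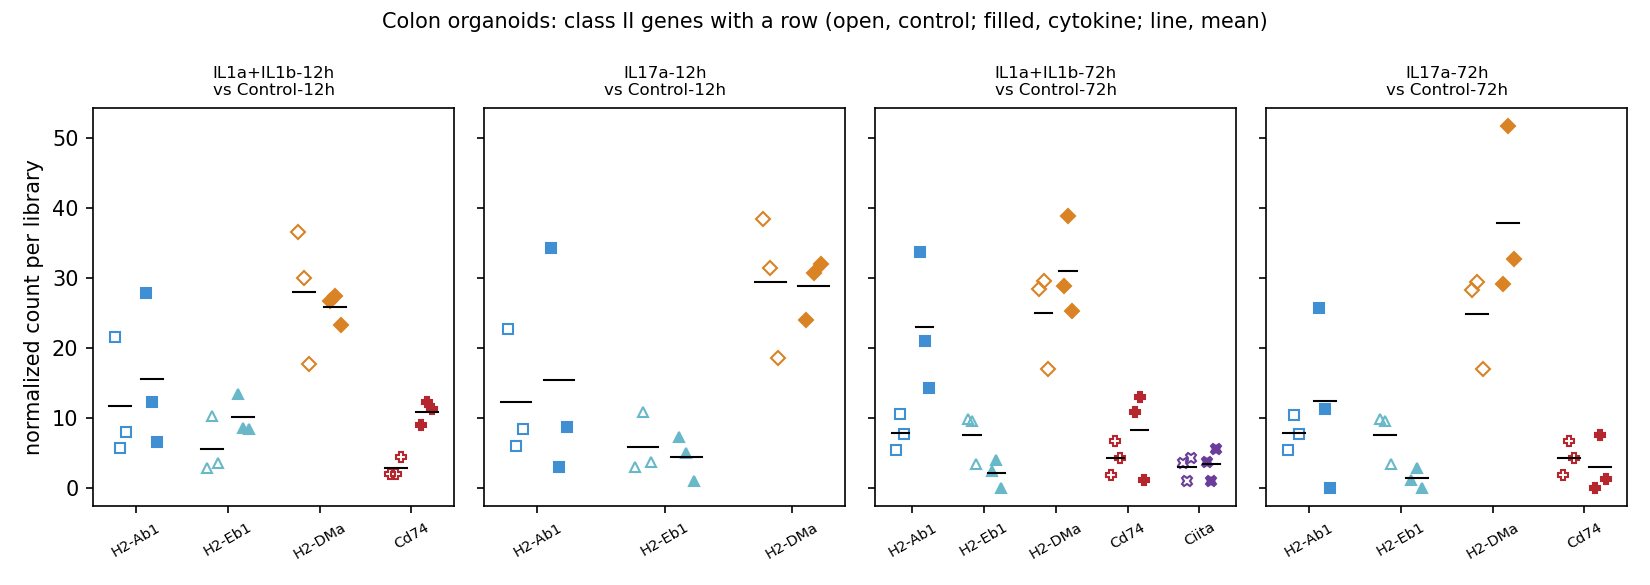
Normalized counts of the MHC class II genes listed in each organoid table, control and treated libraries side by side; each point is 1 library. Values stay under 60 normalized counts, and Cd74 with IL-1 at 12 h, H2-Ab1 with IL-1 at 72 h and H2-Eb1 with IL-17a at 72 h are the genes whose groups do not overlap. In the same order and direction, groups did not overlap for 5.3%, 27.0% and 23.6% of all genes tested.

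The 2 interleukin treatments were also set against each other, as a description. Between IL-1 and IL-17a the median log2 difference was 0.38 at 12 h, where no gene was called (0% with limma, with 69 genes at an unadjusted p under 0.05, 0 by edgeR and 4 by DESeq2), and 0.29 at 72 h, where 0.0151% of genes were called. The change of the effect from 12 h to 72 h had a median of 0.37 for IL-1 (12.7% of genes called) and -0.12 for IL-17a (1.33% called). With each distinct control entered once the medians were 0.38, 0.29, 0.29 and -0.41. The members have few reads here, and these differences were not tested.

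Genes of the other lists were also called in organoids at 72 h, at a share near that of all genes with IL-1. Of the class I list 6 of 24 tested genes and of the interferon gamma list 3 of 15 were called with IL-1, beside 23% of all genes, and 5 of 24 and 3 of 15 with IL-17a, beside 7.94%. With IL-1 the genes Psmb8, Psmb9 and H2-T23 of the class I list rose by log2 fold changes of 2.05, 1.59 and 1.51. Psmb8 had few counts, at 26.1 ± 14.1 normalized counts against 5.37 ± 2.35 (SD, n = 3 each). Ifngr1 rose by 1.44, Jak2 by 1.34, Prdm1, a repressor of Ciita in plasma cells, by 2.87 and Icosl by 2.77. From the class I list 1 gene (Cd1d1, named after its values were seen) fell. With IL-17a H2-Q10, H2-M3 and H2-T23 rose by 2.22, 1.52 and 1.281, Irgm2 by 1.79, Ifngr1 by 1.33 and Icosl by 2.75. Of the 10 calls that the rule names with IL-1, 7 were kept with any library left out (Ctsl, H2-T23, Icosl, Ifngr1, Jak2, Prdm1 and Psmb9), and of the 8 it names with IL-17a none was. The log2 fold changes of Ctsl, Prdm1, Ifngr1, Psmb9, H2-T23, Tap2 and Icosl with IL-1, and of Ifngr1 with IL-17a, were higher at 72 h than at 12 h by the test of that change, and none of these calls was kept with every single library left out.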

How the data were processed

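RNA sequencing of 42 libraries in 12 tables was used, and groups were taken from the sample labels. Per the submitters' processing notes and the study's methods, reads were mapped uniquely to mm10 with STAR 2.5.3 and gene counts were normalized with DESeq2 1.28.1. The deposited values are therefore a normalized signal, gene counts divided by 1 size factor per library, and each table was normalized by itself. The counting program, its annotation and strand setting are not given in the sources used here. Without strand, reads of overlapping genes cannot be separated.

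Every value was a whole multiple of the value of 1 read in its column (0.752 to 1.26). Dividing by it gave whole reads, with 100% of the quotients at most 0.1 away from an integer. CPM was computed over the 12190 genes in every table. Rows with no gene name occur in the GS4M2 tables and hold up to 28.2% of the reads there, and they were left out. Rows in the tables have at least 11 reads in all. Each table also has 17 to 21 gene names turned into dates, so a gene may be unlisted because it was low or because its name was lost, as for March1 and March8, which fill 4 of the 14 names of the protease list as old and new symbols. Control libraries in 2 tables differed in at most 5 genes. Counting error sets a limit of 3 reads where a count is 0.

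Knockout or cytokine and control were compared within a table with limma 3.58.1 (R 4.3.3, trend) on log2(value + 1), over genes whose mean value reached 10. Calls needed an adjusted p (Benjamini-Hochberg) under 0.05 and a log2 fold change of 1 or more in either direction. Comparisons across tables and interactions used limma on log2(CPM + 0.1) with TMM scaling, over genes with a mean of at least 0.5 CPM, all libraries of a cell type sharing 1 estimate of the spread, and a gene was called at an adjusted p under 0.05. p-values were adjusted over all genes. The scripts were tested on simulated data.

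The members and the lists were chosen with earlier results of these data known. All 7 members are named throughout. No p-value is given for members in a comparison the rule used or in a difference of 2 such comparisons, though such a test had been planned for the differences. Of each list at most 3 called genes per comparison are named by rule, those with the largest absolute log2 change, with Irf1, Rfx5 and Nlrc5, and of the genes most alike the 3 with the highest r and a mean of at least 1 CPM. Socs1 in GS4T-Distal and Cd1d1 with IL-1 at 72 h are named in addition, after their values were seen. A further gene named by the rule is not reported here. Gene positions are from GENCODE M21 (GRCm38). Alternatives were other pseudocounts, filters and scalings, 1 fit over all tables of a cell type, the replicate number as a block, each library left out, and edgeR 4.0.16 and DESeq2 1.42.0 on the recovered reads. Entering each distinct organoid control once was chosen after seeing the data, as was leaving both stromal libraries low in Gli1 out of the correlations.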

Additional observations from a re-analysis of the deposited data

Results flagged for a closer look

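In distal stromal cells the 2 knockouts lay on opposite sides of their shared controls for 4 members: both GS4T-Distal libraries were below both GWTT-Distal libraries and both GA3T-Distal libraries above them. Of all genes 33.1% were lower without overlap in GS4T-Distal and 27.5% were higher in GA3T-Distal. How many genes did both was not counted. The log2 difference of GS4T-Distal from GA3T-Distal was -2.69 for Ciita, the coactivator of the class II set, -2.63 for the alpha chain gene H2-Aa, -2.61 for the beta chain gene H2-Ab1 and -0.99 for H2-DMa of the peptide exchange factor. The difference was not tested, since the members were chosen on the effect of each knockout. Groups of 2 or 3 libraries were too small for a test of single outlying libraries.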

How the results depend on the processing

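The median log2 change of the members in the 26 comparisons moved by less than the spread between libraries in all 210 repeats under another pseudocount, filter, scaling, tool or fit, and by more in 14 of 148 repeats that left out 1 library. Its sign changed in 11 of the 210: in GA3M2-Distal (-0.14 by edgeR and DESeq2 against 1.90), with IL-17a at 72 h (0.09 and 0.06 against -0.57), with IL-17a at 12 h (0.007 with a pseudocount of 10 and 0.05 with the replicate block, against -0.05), between IL-1 and IL-17a at 12 h (-0.009 by edgeR against 0.38) and in the change with IL-17a from 12 h to 72 h (0.09 to 0.51 in 4 settings against -0.12). With 1 library left out a group of 2 holds 1, which is assumed to vary like the others. Over the library left out, the median ran from -1.10 to 5.04 in GA3M2-Distal, 1.64 to 5.56 in GA3M2-Proximal, -5.00 to 1.24 in GS4M2-Distal, -2.53 to 1.97 in GS4M2-Proximal, -6.00 to -2.44 and -4.68 to -2.07 between GS4M2 and GA3M2 in the proximal and the distal colon, -1.18 to 4.92 and -0.63 to 4.67 in the GS4M2 and GA3M2 segment interactions, and -3.69 to 1.94 between the segments of GWTM2. In stromal cells it ran from 0.19 to 0.67 in GA3T-Distal, 0.71 to 1.00 in GA3T-Proximal, -2.40 to -1.25 in GS4T-Distal, -0.34 to 0.98 in GS4T-Proximal, -1.18 to 0.21 and -3.12 to -1.66 between GS4T and GA3T in the proximal and the distal colon, 1.44 to 2.81 and 0.13 to 0.59 in the GS4T and GA3T segment interactions, and -0.69 to -0.49 between the segments of GWTT. The organoid medians ran from -1.20 to 1.16 over all comparisons. Of the repeats for single genes 196 of 364 with a library left out and 35 of 552 others lost the call, and none reversed. The cause was not tested.

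The share of all genes called depended on the tool. DESeq2 against limma called 426 against 12 genes in GA3M2-Proximal, 972 against 55 in GA3T-Proximal (edgeR 0, a pseudocount of 0.1 gave 6), 271 against 43 in GS4M2-Proximal, 1058 against 68 and 528 against 104 between GS4M2 and GA3M2 in the proximal and the distal colon, 1314 against 458 in GS4T-Distal against GA3T-Distal, and 2380 against 1038 with IL-17a at 72 h. With 1 fit over all tables of a cell type 737 genes were called in GA3T-Proximal, 9 in GS4M2-Proximal and 2624 with IL-17a at 72 h. With each distinct organoid control entered once, 4894 against 1678 genes changed from 12 h to 72 h with IL-1 and 3703 against 176 with IL-17a.

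With the replicate number as a block the medians of the sorted comparisons stayed as given, for example 3.59 in GA3M2-Proximal, where 699 against 12 genes were called and all 7 members passed as higher. The block called 5 members against 4 in GS4T-Distal, 253 against 55 genes in GA3T-Proximal, 260 against 43 in GS4M2-Proximal, 1513 against 2998 with IL-1 at 72 h and 4 against 1038 with IL-17a at 72 h. Libraries with the same number shared only a number by the labels. The correlation of their deviations from the group means was 0.107 to 0.302 in the GA3M2 and GA3T tables, -0.0573 to 0.119 in the GS4M2 and GS4T tables, 0.619 to 0.637 in the 12 h organoid tables and -0.186 to 0.200 at 72 h. Organoid members had at most 55 reads, which limits what these tables can show.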
